A study of Homo sapiens with 12 samples.

Results

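The genes examined were 36 nucleolar and RNA polymerase I genes of ribosome biogenesis, taken as a named list of symbols out of 23459 gene IDs in a table of raw RNA-Seq counts. The list was chosen with earlier results of these data known, so its shares beside those of all genes are a description. All 36 were found and all passed the filter on low counts that left 14775 genes to test. The cells were MCF10A, a non-tumorigenic human mammary epithelial line, and every library, controls included, came from cells carrying a doxycycline-inducible YAP5SA allele (iYAP5SA), a YAP mutant that escapes inhibition by the Hippo kinases. YAP is a transcriptional coactivator. The cells had received either a vector for JUN overexpression or the empty vector, and then 100 ng/ml doxycycline (Dox) or its solvent alone, ethanol (EtOH). JUN is a basic leucine zipper factor that forms AP-1 with FOS proteins. The 4 groups (vector EtOH and vector Dox, JUN EtOH and JUN Dox) held 3 libraries each, described in the study's methods as biological replicates. Cells were infected populations of 1 line, and no library had Dox without the iYAP5SA allele, so an effect of doxycycline itself cannot be told apart from that of YAP5SA. The JUN and YAP5SA constructs add to the cells' own JUN and YAP1 genes.

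Ribosome biogenesis begins in the nucleolus, where RNA polymerase I transcribes the precursor of the large ribosomal RNAs. Box C/D and box H/ACA small nucleolar ribonucleoproteins (snoRNPs) modify this precursor, and assembly factors fold and cleave it into the small and the large ribosomal subunit while ribosomal proteins join. The transcription factor MYC is a known regulator of many genes of this process and binds the E-box sequence CACGTG. Growing epithelial cells depend on this supply of ribosomes.

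Total counts ranged from 18594867 to 28993487 per library, and the lowest count of any of the 36 genes in a library was 417, so sampling of reads was a small part of their error. The manipulated gene was checked first. JUN had means of 47.6 ± 10.5 CPM for vector EtOH, 189.7 ± 4.2 for vector Dox, 1279 ± 187 for JUN EtOH and 1248 ± 92.3 for JUN Dox (SD, n = 3, where CPM are counts scaled to TMM-adjusted library size), so that JUN was also higher upon induction in vector cells, which carry no JUN construct (log2 1.99, edgeR adjusted p 3.09e-07). YAP1 had 179 ± 10.5 CPM for vector EtOH, 237 ± 31.5 for vector Dox, 234 ± 20.9 for JUN EtOH and 279.9 ± 79.3 for JUN Dox, and its counts may include reads of the transgene. Upon induction YAP1 was not called, at log2 0.40 (edgeR adjusted p 0.0819) in vector and 0.26 (edgeR adjusted p 0.308) in JUN cells. With JUN it was 0.39 (edgeR adjusted p 0.0755) without and 0.24 (edgeR adjusted p 0.264) with induction. JUN Dox against vector EtOH gave 0.64 (edgeR adjusted p 0.00679). The YAP1 counts alone thus did not show the induction of YAP5SA. All 8 mammary epithelial markers looked up were found in all 12 libraries, from 5.36 CPM (TP63) to 4697 CPM (KRT5). Their summed level was 8724 to 9344 CPM for vector EtOH, 4902 to 5902 for vector Dox, 9274 to 10679.8 for JUN EtOH and 5838 to 8329 for JUN Dox. Of the 5 blood cell markers, 3 had counts, nearly all of them in CD68, so that the sum was 28.1 to 29.9 CPM for vector EtOH, 17.0 to 19.3 for vector Dox, 77.9 to 93.3 for JUN EtOH and 50.8 to 68.9 for JUN Dox, with CD3E and HBB at 0. All 5 fibroblast markers had counts, mostly in PDGFRA (87.9 to 156 CPM), with a sum of 108 to 122 CPM for vector EtOH, 120.4 to 160.2 for vector Dox, 109.9 to 122 for JUN EtOH and 124 to 138 for JUN Dox and COL1A2 at or near 0 (at most 0.041 CPM). The 4 endothelial markers were at most 1.95 CPM each. The part of these genes in the results below was not tested.

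RefSeq promoter windows (250 bases before to 50 bases after the start site, build GRCh38.p14) were available for 31 of the 36 genes, with NOP58, RRP12, BOP1, RRS1 and NOLC1 missing. The E-box CACGTG, which reads the same on both strands, was found in 11 of the 31 windows (35.5%). It was found in 7.4% of all 27305 windows in the table, in 8.8% of the 16497 windows of genes in the count table, in 31 of 103 windows (30.1%) of further ribosome biogenesis genes and in 3 of 63 windows (4.8%) of cytosolic ribosomal protein genes. A match describes the letters and not a bound site. Windows of 30 bases around the E-box, in capitals, are shown for 6 genes with roles in different steps, since these genes are followed through the results.
RRP9 (chr3:51941892-51941921, minus strand): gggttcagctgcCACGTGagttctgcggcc
FBL (chr19:39846356-39846385, minus strand): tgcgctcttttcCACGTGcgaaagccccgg
BYSL (chr6:41921515-41921544, plus strand): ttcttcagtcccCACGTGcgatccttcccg
NOL6 (chr9:33473894-33473923, minus strand): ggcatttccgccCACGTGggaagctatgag
PES1 (chr22:30591880-30591909, minus strand): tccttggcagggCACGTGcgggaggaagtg
MYBBP1A (chr17:4555340-4555369, minus strand): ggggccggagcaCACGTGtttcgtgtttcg
The start of the RRP9 E-box lay 5 bases upstream of the annotated start site. The E-boxes of FBL, NOL6, PES1, MYBBP1A and BYSL began 6, 13, 13, 27 and 28 bases downstream of theirs. The stretch that leads into the RRP9 E-box is given in full, as RRP9 had the largest fold changes of the snoRNP genes.
RRP9 upstream (chr3:51941904-51942154, minus strand): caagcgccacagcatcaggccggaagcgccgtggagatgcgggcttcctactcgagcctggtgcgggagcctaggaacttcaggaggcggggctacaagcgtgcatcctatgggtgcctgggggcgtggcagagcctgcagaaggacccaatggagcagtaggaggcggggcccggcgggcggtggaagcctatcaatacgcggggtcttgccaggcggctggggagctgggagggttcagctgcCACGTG

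Induction of YAP5SA raised most of the 36 genes and JUN overexpression lowered most of them, with and without the other. In vector cells 24 genes were called higher upon induction and 0 lower, against 15.6% of all genes called higher and 14.4% lower, and their median log2 fold change was 0.46 against 0.01 for all genes. In JUN cells 24 were called higher and 0 lower, against 11.2% and 10.3% of all genes, with a median of 0.51. JUN without induction lowered 26 genes and raised 0, against 18.9% of all genes lower and 20.1% higher, with a median of -0.42. JUN with induction lowered 27 and raised 0, against 17.2% and 18.4%, with a median of -0.37. Calls were made with edgeR's quasi-likelihood test at an adjusted p under 0.05 (Benjamini-Hochberg over the 14775 genes). No opposite call was made with DESeq2 in these comparisons, except for 1 gene, UBTF, lower upon induction in vector cells. At an unadjusted p under 0.05, edgeR found 27, 31, 30 and 31 of the 36 genes in the comparisons as listed above. Of all 14775 genes it found 5921, 4884, 7210 and 6835 in the same order. CPM is a share of each library, so that less of these transcripts per cell and more of all other RNA cannot be told apart, nor can fewer cells of a kind and less RNA per cell.

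The median of the 36 genes, relative to the mean of the vector EtOH libraries, was -0.00, -0.06 and 0.04 (log2) across vector EtOH, 0.47, 0.44 and 0.46 across vector Dox, -0.46, -0.51 and -0.31 across JUN EtOH, and -0.00, -0.01 and 0.15 across JUN Dox. The 3 vector Dox libraries were the highest, the 3 JUN EtOH libraries the lowest, and the JUN Dox libraries lay around the vector EtOH libraries. As a share of all counts, the 36 genes took 0.670% ± 0.022 for vector EtOH, 0.892% ± 0.015 for vector Dox, 0.497% ± 0.014 for JUN EtOH and 0.680% ± 0.013 for JUN Dox (SD, n = 3).

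**Figure D1:**
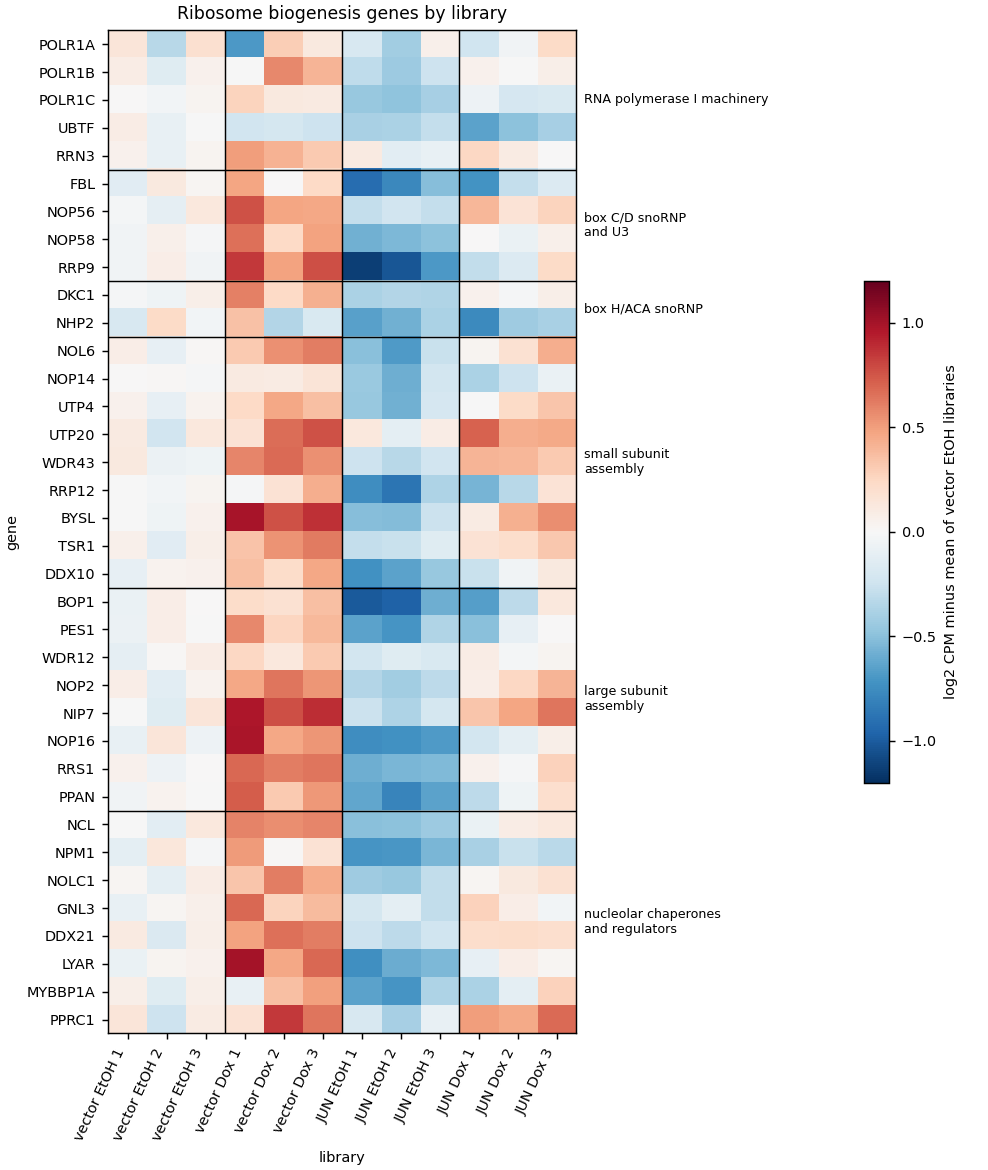
Colour gives log2 CPM minus the mean of the 3 vector EtOH libraries for each of the 36 genes (vertical axis, grouped by role) in each of the 12 libraries (horizontal axis). Vector Dox columns are mostly red, with medians of 0.44 to 0.47, JUN EtOH columns are mostly blue, with medians of -0.51 to -0.31, and JUN Dox columns are mixed.

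A pair of libraries differed from their group in transcripts of ribosomal proteins, which took 3.65% of counts in vector EtOH 2 and 3.67% in vector Dox 1, against 2.54% to 2.94% in the other 4 vector libraries. FBL, NHP2 and NPM1, with exon lengths of 1125, 780 and 1320 bases in the canonical transcript, were highest of their group in both libraries, and POLR1A (12480 bases) was lowest of its group in both. With both libraries left out, the calls were 20 higher in vector cells, 28 higher in JUN cells, and 31 and 23 lower with JUN without and with induction. In the same fits the calls over all genes were 1648 higher in vector cells (2309 with all libraries), 2105 higher in JUN cells (1649), and 2745 (2797) and 2075 (2545) lower with JUN. UBTF was called lower upon induction in vector cells. This setting was chosen after the data were seen, and the part of these libraries in the results was not tested beyond it.

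Among the 5 RNA polymerase I genes listed, few calls were made upon induction, a share near that of all genes. POLR1A encodes the largest subunit and POLR1B the second-largest, POLR1C a subunit shared with RNA polymerase III, UBTF the upstream binding factor of the ribosomal DNA, and RRN3 the factor that brings the polymerase to the promoter. Of the 5 genes, 1 was called higher upon induction in vector cells and 1 in JUN cells (20% each), against 15.6% and 11.2% of all genes. JUN lowered 2 without and 3 with induction (40% and 60%), against 18.9% and 17.2% of all genes. With 5 genes these shares are coarse. POLR1G, a further subunit, is not among the 5 and is given below.

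POLR1C (Entrez gene 9533, GRCh37 chromosome 6, 43477440 to 43530156, plus strand, 9 exons) stood at 60.0, 58.4 and 61.3 CPM across vector EtOH, 72.0, 64.9 and 64.6 across vector Dox, 43.7, 42.7 and 45.4 across JUN EtOH, and 57.5, 52.1 and 52.9 across JUN Dox. Each JUN library lay below each vector library with the same treatment, and each induced library above each uninduced library of the same vector. JUN changed POLR1C by -0.45 (edgeR adjusted p 0.00105, SE 0.09) on the log2 scale without induction and by -0.31 (edgeR adjusted p 0.0117, SE 0.09) with it. Induction changed it by 0.30 (edgeR adjusted p 0.0217, SE 0.09) in JUN cells, and the difference of 0.16 (edgeR adjusted p 0.169, SE 0.09) in vector cells was not called. The call in JUN cells was lost in 4 of 21 alternatives, without JUN EtOH 1, JUN EtOH 2 or JUN Dox 1 and with no filter (edgeR adjusted p up to 0.0875). That of JUN with induction was lost in 2, without JUN Dox 2 and with only its own libraries (edgeR adjusted p up to 0.085).

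RRN3 rose upon induction in vector cells by 0.41 (edgeR adjusted p 0.0057, SE 0.10), from 58.3 ± 3.0 to 77.6 ± 4.9 CPM (SD, n = 3), and its difference of 0.15 (edgeR adjusted p 0.319, SE 0.10) in JUN cells was not called. JUN with induction lowered it, at -0.29 (edgeR adjusted p 0.0322, SE 0.10), a call lost in 8 of 21 alternatives, and JUN without induction gave -0.03 (edgeR adjusted p 0.819, SE 0.10). The difference between these effects, which is the interaction, was -0.26 (edgeR adjusted p 0.665, SE 0.14), so they were not shown to differ. RRN3 has 3 pseudogenes with counts (means of 28.9 to 89.7, against 1477 for RRN3), and reads could have been split with them. With vector EtOH 2 and vector Dox 1 left out, RRN3 lost both calls (edgeR adjusted p 0.0583 and 0.087).

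UBTF, which is singled out after its values were seen, had negative values upon induction in both kinds of cells. It stood at 124, 110.0 and 117 CPM across vector EtOH, 99.4, 101 and 98.6 across vector Dox, 89.0, 89.7 and 96.0 across JUN EtOH, and 74.9, 83.1 and 88.4 across JUN Dox. The vector Dox libraries lay below all vector EtOH libraries and the JUN Dox libraries below all JUN EtOH libraries. Induction gave -0.23 (edgeR adjusted p 0.0624, SE 0.09) in vector cells and -0.16 (edgeR adjusted p 0.243, SE 0.09) in JUN cells, both short of the threshold. JUN lowered UBTF, with log2 values of -0.35 (edgeR adjusted p 0.00626, SE 0.09) without and of -0.28 (edgeR adjusted p 0.0252, SE 0.09) with induction. The latter call was lost in 6 of 21 alternatives, 4 of which left out a single library (edgeR adjusted p up to 0.109).

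POLR1B had values of 0.34 (edgeR adjusted p 0.0533, SE 0.13) and 0.37 (edgeR adjusted p 0.0518, SE 0.13) upon induction in vector and JUN cells, and -0.33 (edgeR adjusted p 0.0509, SE 0.13) and -0.31 (edgeR adjusted p 0.0712, SE 0.13) for JUN without and with induction, each short of the threshold. With vector EtOH 2 and vector Dox 1 left out, all 4 passed it (edgeR adjusted p 0.00186 to 0.00808). Without vector Dox 2 the value upon induction in vector cells was 0.20 and that of JUN with induction was -0.17 (edgeR adjusted p 0.249 and 0.314). POLR1A ranged from 59.7 CPM in vector Dox 1 to 118 CPM in vector Dox 2, and its groups overlapped in each of the 4 pairwise comparisons, where no difference was called (edgeR adjusted p 0.509 to 0.92). Its 4 fold changes lay between -0.19 and 0.17, each with an SE of 0.21.

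Most box C/D snoRNP genes were called in each direction, and RRP9 had the lowest log2 fold changes of the 36 genes in both JUN comparisons. FBL encodes fibrillarin, the methyltransferase of these particles, NOP56 and NOP58 their core proteins, and RRP9 a protein of the U3 particle that guides early cleavage. Of the 4 genes, 3 rose upon induction in vector cells and 3 in JUN cells, and JUN lowered 3 without induction and 4 with it. Among all genes, the shares called in these directions were 15.6%, 11.2%, 18.9% and 17.2%, and 4 genes give only coarse shares.

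RRP9 (Entrez gene 9136, GRCh37 chromosome 3, 51967445 to 51975920, minus strand, 15 exons) stood at 39.0, 42.6 and 39.0 CPM across vector EtOH, 72.3, 56.0 and 68.9 across vector Dox, 18.4, 19.7 and 24.9 across JUN EtOH, and 32.8, 35.9 and 47.0 across JUN Dox. All vector Dox libraries lay above all vector EtOH libraries, and all JUN EtOH libraries lay below every other library. With JUN, RRP9 fell by 47.8% without induction (log2 -0.94, edgeR adjusted p 0.00024, SE 0.15). With induction it fell by 41.3% (log2 -0.77, edgeR adjusted p 0.00101, SE 0.15). Induction raised it 1.64-fold in vector cells (log2 0.71, edgeR adjusted p 0.00194, SE 0.15) and 1.84-fold in JUN cells (log2 0.88, edgeR adjusted p 0.000716, SE 0.15).

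FBL had means of 202 ± 17.4 CPM for vector EtOH, 239.6 ± 38.9 for vector Dox, 122 ± 17.4 for JUN EtOH and 155 ± 29.8 for JUN Dox (SD, n = 3). JUN lowered it, with log2 values of -0.73 (edgeR adjusted p 0.00209, SE 0.15) without and -0.62 (edgeR adjusted p 0.00593, SE 0.15) with induction, while its differences upon induction (0.25 and 0.35 in vector and JUN cells) were not called. NOP56 rose upon induction in vector cells by 0.57 (edgeR adjusted p 0.000973, SE 0.11). Its log2 values with JUN were close to each other, at -0.29 with induction (edgeR adjusted p 0.0435, SE 0.11) and -0.27 without (edgeR adjusted p 0.0556, SE 0.11). Only the first passed the threshold, and the groups did not overlap in either comparison. NOP58 went from 129.6 ± 5.1 to 179 ± 25.6 CPM upon induction and to 89.2 ± 2.5 CPM with JUN.

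Both box H/ACA genes were called lower with JUN without and with induction, against 18.9% and 17.2% of all genes. Upon induction 1 of them was called higher in vector and in JUN cells, against 15.6% and 11.2%. DKC1 encodes dyskerin, the pseudouridine synthase of these particles, and NHP2 one of their core proteins. DKC1 rose from 122 ± 5.3 to 164 ± 20.5 CPM in vector cells and from 94.5 ± 0.94 to 125 ± 3.8 CPM in JUN cells (SD, n = 3).

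NHP2 (Entrez gene 55651, GRCh37 chromosome 5, 177576464 to 177580895, minus strand, 4 exons) stood at 163, 219 and 183 CPM across vector EtOH, 238, 146 and 165 across vector Dox, 119, 126 and 143 across JUN EtOH, and 110.4, 139.5 and 143 across JUN Dox. The vector EtOH and vector Dox libraries overlapped, as did both JUN groups, and every JUN library was below every vector library with the same treatment. JUN lowered NHP2, with log2 values of -0.54 (edgeR adjusted p 0.0192, SE 0.17) without and -0.48 (edgeR adjusted p 0.0359, SE 0.17) with induction, and induction gave log2 values of -0.04 (SE 0.17) in vector and 0.02 (SE 0.17) in JUN cells. The call with induction was lost in 7 of 21 alternatives, and over all 21 the value ran from -0.61 to -0.24. The counts of NHP2 are uncertain, since 28.0% of its exon bases are shared with RMND5B on the opposite strand. RMND5B itself gave -0.34 and -0.28 with JUN without and with induction (edgeR adjusted p 0.0101 and 0.029). Upon induction it gave 0.09 and 0.15 in vector and JUN cells, not called. The part of shared reads was not tested.

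Most small subunit genes rose upon induction. NOL6, NOP14, UTP4, UTP20 and WDR43 are parts of the small subunit processome, BYSL, TSR1 and RRP12 act in later steps and in export of the precursor, and DDX10 is an RNA helicase. Of the 9 genes, 7 rose upon induction in vector cells and 7 in JUN cells, and JUN lowered 7 without and 5 with induction. The shares of all genes called in these directions were 15.6%, 11.2%, 18.9% and 17.2%.

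BYSL (Entrez gene 705, GRCh37 chromosome 6, 41889237 to 41900784, plus strand, 7 exons) stood at 57.8, 55.8 and 60.1 CPM across vector EtOH, 115, 98.3 and 107 across vector Dox, 40.7, 40.2 and 48.4 across JUN EtOH, and 61.8, 77.8 and 85.5 across JUN Dox. The vector Dox libraries were the highest and the JUN EtOH libraries the lowest, with no overlap with any other group, and the JUN Dox libraries lay above all vector EtOH libraries. Induction raised BYSL 1.84-fold in vector cells (log2 0.88, edgeR adjusted p 6.17e-05, SE 0.12) and 1.74-fold in JUN cells (log2 0.80, edgeR adjusted p 0.000261, SE 0.12). JUN changed it by -0.43 (edgeR adjusted p 0.0122, SE 0.12) without and by -0.50 (edgeR adjusted p 0.00439, SE 0.12) with induction.

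WDR43 rose by 0.60 (edgeR adjusted p 0.000108, SE 0.09) in vector and 0.64 (edgeR adjusted p 0.000109, SE 0.09) in JUN cells upon induction, and NOL6 by 0.50 and 0.70. UTP20 rose as well, from 46.8 ± 6.2 to 68.6 ± 14.1 CPM in vector cells and from 47.8 ± 4.3 to 67.6 ± 7.1 CPM in JUN cells (SD, n = 3). The call in vector cells was lost without vector EtOH 2 or vector Dox 3 (edgeR adjusted p 0.0615 and 0.0605). Its JUN effects were 0.03 (SE 0.15) without and -0.02 (SE 0.15) with induction, neither of them called. NOP14 had log2 differences of 0.12 and 0.18 upon induction, neither called, and falls by 0.41 and 0.35 with JUN. UTP20 and NOP14 are named here after their values were seen. NOP14 shares 20.7% of its exon bases with its antisense gene, NOP14-AS1, whose mean count (3501) was close to its own (3483). TSR1 shares 23.9% with SRR, so the values of NOP14 and TSR1 are uncertain. NOP14-AS1 itself gave -0.27 with JUN without and with induction (edgeR adjusted p 0.0406 and 0.0467), and was not called upon induction. SRR gave 0.40 and 0.36 upon induction in vector and JUN cells (edgeR adjusted p 0.00198 and 0.00571). With JUN, SRR gave -0.20 and -0.24 (edgeR adjusted p 0.0676 and 0.0366).

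RRP12 and DDX10 fell with JUN without induction, by 0.65 (edgeR adjusted p 0.00886, SE 0.17) and 0.60 (edgeR adjusted p 0.00105, SE 0.12) on the log2 scale. UTP4 rose upon induction by 0.36 in vector and 0.60 (edgeR adjusted p 0.00186, SE 0.12) in JUN cells, and TSR1 rose from 159 ± 12.3 to 226 ± 22.7 CPM in vector cells.

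Most large subunit genes rose upon induction and were lower with JUN. BOP1, PES1 and WDR12 form the PeBoW complex, NOP2 is an RNA methyltransferase, RRS1 helps to place the 5S particle, and NIP7, NOP16 and PPAN act on the large subunit precursor. Of the 8 genes, 6 rose upon induction in vector cells and 6 in JUN cells, and JUN lowered 7 without and 7 with induction. These calls stand against 15.6%, 11.2%, 18.9% and 17.2% of all genes, in that order. WDR12 was called in none of these comparisons, with values of 0.23, 0.21, -0.18 and -0.20, at unadjusted p of 0.0253, 0.0365, 0.0675 and 0.0472 by edgeR.

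NIP7 (Entrez gene 51388, GRCh37 chromosome 16, 69371899 to 69377009, plus strand, 5 exons) stood at 65.8, 59.8 and 72.9 CPM across vector EtOH, 129, 113 and 122 across vector Dox, 55.3, 50.9 and 56.8 across JUN EtOH, and 83.0, 91.3 and 103 across JUN Dox. The vector Dox libraries were highest, followed without overlap by JUN Dox, vector EtOH and JUN EtOH. Induction raised NIP7 1.83-fold in vector cells (log2 0.87, edgeR adjusted p 2.07e-05, SE 0.11) and 1.70-fold in JUN cells (log2 0.77, edgeR adjusted p 0.000126, SE 0.11). With JUN it fell by 17.9% without (log2 -0.28, edgeR adjusted p 0.0458, SE 0.11), and fell by 23.7% with induction (log2 -0.39, edgeR adjusted p 0.0098, SE 0.10). NIP7 shares 18.4% of its exon bases with COG8 on the opposite strand, and COG8 itself changed by -0.08 upon induction in vector cells and by -0.43 with JUN (edgeR adjusted p 0.574 and 0.00292).

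BOP1 fell with JUN from 191 ± 10.7 to 107 ± 18.2 CPM without induction, with log2 values of -0.84 (edgeR adjusted p 0.0012, SE 0.17) without and -0.50 (edgeR adjusted p 0.0281, SE 0.16) with induction. The latter call was lost in 5 of 21 alternatives, and with 1 library left out the value ran from -0.74 to -0.33, the latter without JUN Dox 1. NOP16 fell with JUN, with log2 values of -0.72 (edgeR adjusted p 0.000662, SE 0.13) and -0.76 (edgeR adjusted p 0.000411, SE 0.13), and rose by 0.68 (edgeR adjusted p 0.00115, SE 0.13) and 0.64 (edgeR adjusted p 0.00297, SE 0.13) upon induction. RRS1 had means of 81.6 ± 3.1 CPM for vector EtOH, 128 ± 3.3 for vector Dox, 55.5 ± 1.0 for JUN EtOH and 87.9 ± 9.5 for JUN Dox, with rises of 0.65 and 0.66 and falls of 0.56 and 0.54 on the log2 scale.

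NOP2 rose by 0.54 in vector and 0.61 (edgeR adjusted p 0.000544, SE 0.10) in JUN cells. PES1 fell with JUN, with log2 values of -0.56 (edgeR adjusted p 0.0045, SE 0.13) and -0.59 (edgeR adjusted p 0.00342, SE 0.13) without and with induction. PPAN fell with JUN as well, with values of -0.69 (edgeR adjusted p 0.000979, SE 0.13) and -0.57 (edgeR adjusted p 0.00362, SE 0.13). However, it shares 47.6% of its exon bases with the read-through gene PPAN-P2RY11 on the same strand. The mean count of PPAN-P2RY11 was 1710 against 1287 for PPAN, so that their reads cannot be told apart. PPAN-P2RY11 itself gave 0.41 and 0.48 upon induction in vector and JUN cells (edgeR adjusted p 0.0185 and 0.0113). With JUN, PPAN-P2RY11 gave -0.59 and -0.52 without and with induction (edgeR adjusted p 0.00163 and 0.00388). NOP16 shares exon bases with HIGD2A (6.3%) and ARL10 (12.3%) on the opposite strand, the latter with a mean count of 0.2.

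The chaperones and regulators were the last group. NCL encodes nucleolin and NPM1 nucleophosmin, both histone and ribosomal protein chaperones, NOLC1 the phosphoprotein Nopp140, GNL3 the GTPase nucleostemin, DDX21 an RNA helicase, LYAR a zinc finger protein of the nucleolus, MYBBP1A a MYB-binding protein and PPRC1 a coactivator related to PGC-1. Of the 8 genes, 6 rose upon induction in vector cells and 6 in JUN cells, and JUN lowered 5 without and 6 with induction. Among all genes the same calls took 15.6%, 11.2%, 18.9% and 17.2%.

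NCL (Entrez gene 4691, GRCh37 chromosome 2, 232318242 to 232348352, minus strand, 14 exons) stood at 1427, 1315 and 1562 CPM across vector EtOH, 2163, 2102 and 2149.6 across vector Dox, 1009.7, 1020.1 and 1057 across JUN EtOH, and 1352, 1527 and 1564 across JUN Dox. All vector Dox libraries lay above all others, all JUN EtOH libraries below all others, and the JUN Dox libraries overlapped with vector EtOH. The rise upon induction was 0.58 (edgeR adjusted p 0.00111, SE 0.11) in vector and 0.53 in JUN cells (log2), and JUN gave -0.48 without and -0.53 (edgeR adjusted p 0.00189, SE 0.11) with induction.

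NPM1 (Entrez gene 4869, GRCh37 chromosome 5, 170814120 to 170838814, plus strand, 11 exons) stood at 922, 1104 and 992 CPM across vector EtOH, 1431, 1011 and 1129.9 across vector Dox, 613, 616 and 686 across JUN EtOH, and 767, 834 and 799.7 across JUN Dox. Vector EtOH and vector Dox overlapped, while all JUN libraries lay below all vector libraries. Its values upon induction, 0.24 (edgeR adjusted p 0.183, SE 0.13) in vector and 0.33 (edgeR adjusted p 0.0948, SE 0.13) in JUN cells, were not called, and JUN lowered it, with values of -0.66 (edgeR adjusted p 0.00139, SE 0.13) and -0.57 (edgeR adjusted p 0.00378, SE 0.13).

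DDX21 (Entrez gene 9188, GRCh37 chromosome 10, 70715891 to 70744824, plus strand, 15 exons) stood at 610.4, 500.2 and 593 CPM across vector EtOH, 788, 892 and 867 across vector Dox, 475, 454 and 479.5 across JUN EtOH, and 653, 657 and 649.7 across JUN Dox. The order was vector Dox, JUN Dox, vector EtOH and JUN EtOH, without overlap. Induction raised it by 0.58 (edgeR adjusted p 0.00076, SE 0.11) in vector cells and 0.48 in JUN cells, and JUN gave -0.27 (edgeR adjusted p 0.0517, SE 0.11) without induction, short of the threshold, and -0.38 (edgeR adjusted p 0.0121, SE 0.11) with it.

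PPRC1 (Entrez gene 23082, GRCh37 chromosome 10, 103892751 to 103910090, plus strand, 14 exons) stood at 96.0, 73.0 and 92.5 CPM across vector EtOH, 97.7, 156 and 135 across vector Dox, 75.8, 65.7 and 81.2 across JUN EtOH, and 123, 118 and 139 across JUN Dox. Induced libraries were above uninduced ones in both kinds of cells, and JUN and vector libraries overlapped with and without induction. Induction raised it by 0.57 (edgeR adjusted p 0.0112, SE 0.15) in vector and 0.77 (edgeR adjusted p 0.00239, SE 0.15) in JUN cells, and the JUN values of -0.23 (SE 0.15) and -0.03 (SE 0.15) were not called. The call upon induction in vector cells was lost without vector EtOH 2 or vector Dox 2 (edgeR adjusted p 0.0641 and 0.0606).

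LYAR rose from 108 ± 5.1 to 180.3 ± 33.8 CPM upon induction in vector cells (log2 0.74, edgeR adjusted p 0.000297, SE 0.12) and fell to 70.3 ± 4.7 CPM with JUN alone (log2 -0.62, edgeR adjusted p 0.00105, SE 0.12). MYBBP1A fell with JUN without induction, at -0.57 (edgeR adjusted p 0.0167, SE 0.17), a call lost in 3 alternatives (edgeR adjusted p up to 0.0714). NOLC1 rose by 0.46 and 0.50 and fell by 0.40 and 0.35 on the log2 scale, and GNL3 was called higher upon induction in vector cells (0.46) and lower with JUN under induction (-0.34).

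**Figure D2:**
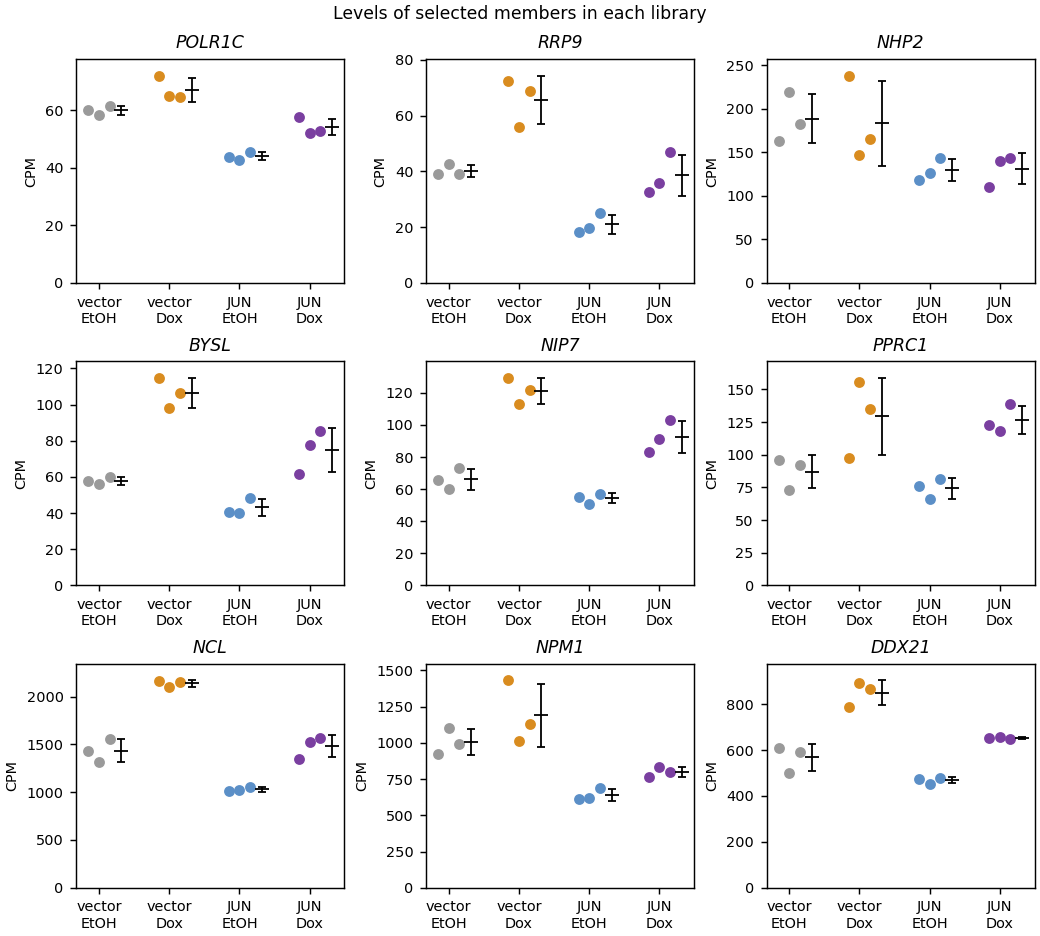
Points give CPM (vertical axis, from 0) of 9 genes in each library by group (horizontal axis), and bars the mean and SD of 3 libraries. In each panel but NHP2, vector Dox has the highest mean and JUN EtOH the lowest, and in NHP2 and NPM1 the vector EtOH and vector Dox libraries overlap.

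**Figure D3:**
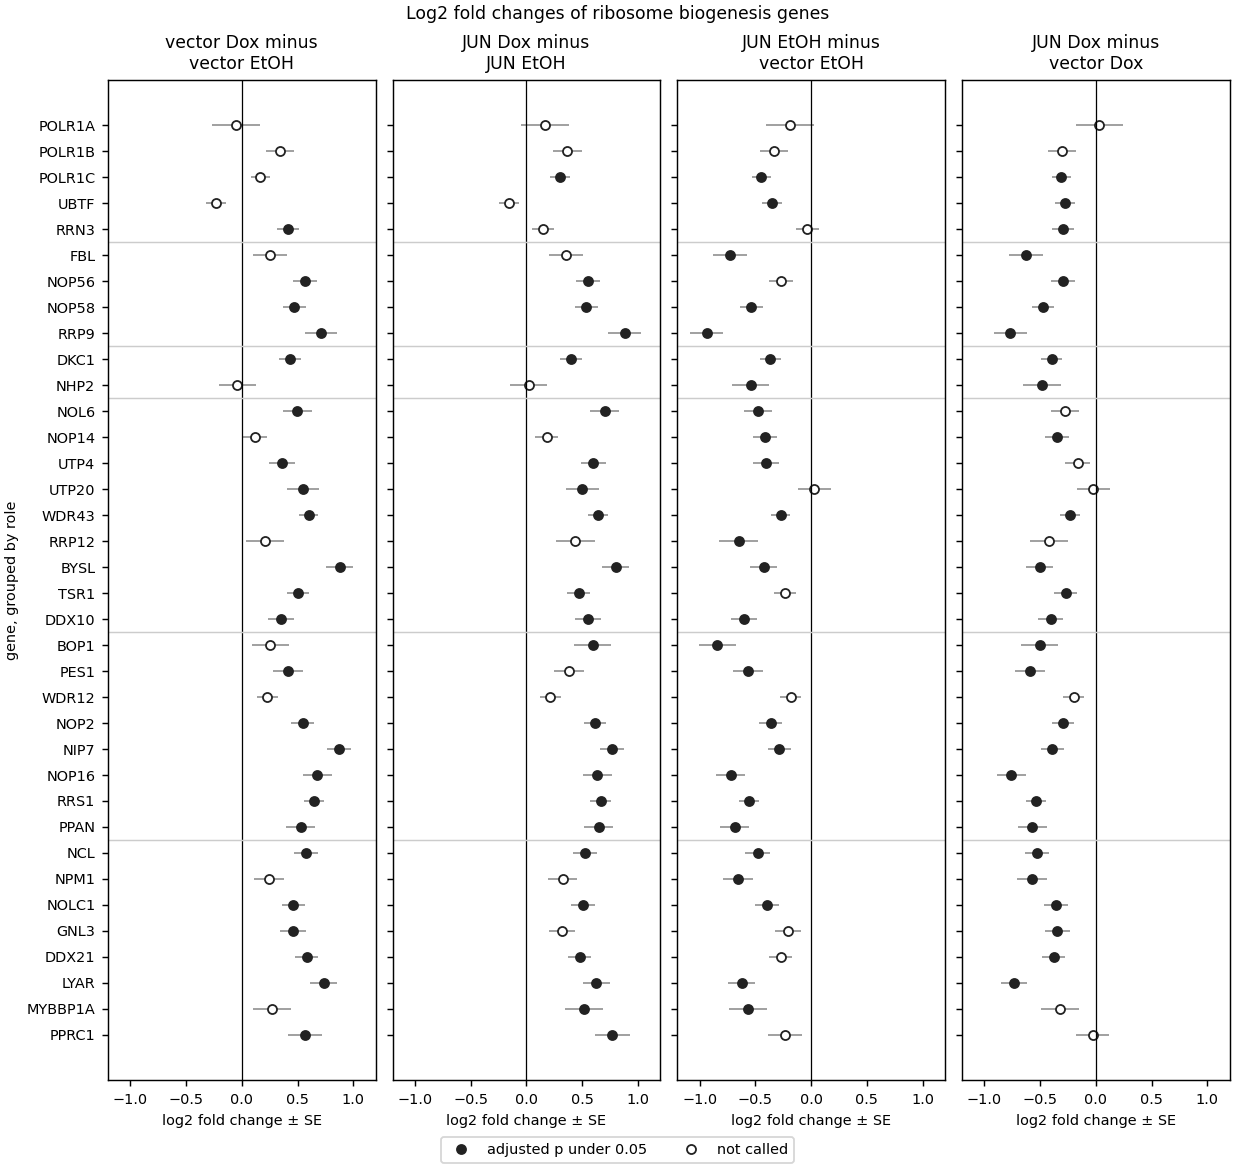
Points give the log2 fold change (horizontal axis) with its SE for each of the 36 genes (vertical axis, grouped by role) in 4 comparisons, with filled points at an edgeR adjusted p under 0.05. Both panels of Dox against EtOH have 24 filled points, all to the right of 0, and the panels of JUN against vector have 26 and 27, all to the left.

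The count for JUN with induction depended on the fit. It went from 27 genes lower to 12 in a fit to the 6 libraries of that comparison alone and to 15 without JUN Dox 2, and to 18 without JUN Dox 1. In the first pair of these its median was -0.36. Over all genes, the calls lower went from 2545 to 1471, 1823 and 1936 in these fits, so fewer calls were made overall. A single fit to all 12 libraries shares 1 estimate of the spread.

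The inductions in vector and in JUN cells share no library, and neither do the pair of JUN comparisons. Of the 24 genes called higher upon induction in vector cells and the 24 in JUN cells, 21 were the same (87.5% of each). Among all genes, 1248 were called higher in both, which was 54% of those called in vector cells and 75.7% of those in JUN cells. RRN3, PES1 and GNL3 were called in vector cells and not in JUN cells, and POLR1C, BOP1 and MYBBP1A the other way round. Of the genes lowered by JUN, 22 were the same, 84.6% of those without induction and 81.5% of those with it. Among all genes the shares were 65% and 71.5%. Each of these comparisons called 66.7% to 75% of the 36 genes in that direction, against 11.2% to 18.9% of all genes. A large overlap is thus due even without a link between comparisons, and the shares cannot be compared with those of all genes. All 4 comparisons came from 1 fit and share its estimate of the spread.

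The interaction asked whether JUN changed the response to YAP5SA, taken as the log2 response to Dox of JUN cells less that of vector cells. By edgeR, 0 of the 36 genes were called above or below 0, against 0.291% and 0.826% of all genes, and 0 had an unadjusted p under 0.05, against 1330 of 14775 genes. DESeq2 called 0 as well. The median was 0.05, and ran from -0.01 (without JUN Dox 3) to 0.10 (without JUN Dox 1) with 1 library left out. The values ran from -0.26 in RRN3 to 0.34 in BOP1, and their SEs from 0.12 to 0.30. A difference between the inductions that is small against these SEs was not detectable for a single gene.

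The comparison of JUN Dox with vector EtOH, which was added after the values were seen, asked where both changes together left these genes. Of the 36 genes, 5 were called higher and 2 lower, against 20.6% and 17.6% of all genes, and their median was 0.03. WDR43 was higher by 0.37 (edgeR adjusted p 0.00389, SE 0.09), BYSL by 0.37 (edgeR adjusted p 0.0227, SE 0.12), NIP7 by 0.48 (edgeR adjusted p 0.00225, SE 0.11), UTP20 by 0.53 (edgeR adjusted p 0.0111, SE 0.15) and PPRC1 by 0.54 (edgeR adjusted p 0.0123, SE 0.15). UBTF was lower at -0.51 (edgeR adjusted p 0.00039, SE 0.09) and NHP2 at -0.52 (edgeR adjusted p 0.0231, SE 0.17). NCL (0.05, SE 0.11), NOP58 (-0.00, SE 0.10) and LYAR (0.00, SE 0.12) had log2 values within 1 SE of 0. Without vector EtOH 2 the calls were 2 higher and 1 lower, and without vector Dox 1, which is in neither group, 8 higher and 4 lower. They were 5 and 1 without JUN Dox 1, and 4 and 6 without JUN Dox 3. Over all genes, 3040 were called higher and 2598 lower with all libraries. In these fits, in the same order, they were 2248 and 1886, 3486 and 3136, 2312 and 2106, and 3123 and 2678. The BYSL call was lost without vector EtOH 1, vector EtOH 2, JUN Dox 2 or JUN Dox 3 (edgeR adjusted p 0.0557 to 0.0934). Those of UTP20 and NHP2 were lost without vector EtOH 2 or JUN Dox 1, and that of PPRC1 without vector EtOH 2 (edgeR adjusted p 0.0555 to 0.113).

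Further genes of ribosome biogenesis, a list of 119 that excludes the 36, were also counted. In vector cells 67 were called higher and 0 lower upon induction (median 0.37), and in JUN cells 75 higher and 0 lower (median 0.39). JUN lowered 66 and raised 2 without induction (median -0.31), and lowered 65 and raised 3 with it (median -0.31). The inductions thus called 56.3% and 63% of the list higher, against 15.6% and 11.2% of all genes. With JUN, 55.5% and 54.6% were called lower, against 18.9% and 17.2% of all genes. POLR1G, a subunit of RNA polymerase I, rose by 1.09 (SE 0.11, edgeR adjusted p 2.73e-06) upon induction in vector cells and was lower with JUN under induction (log2 -0.99, SE 0.11, edgeR adjusted p 6.23e-06). GTPBP4, a GTPase of large subunit assembly, rose by 0.99 (SE 0.10, edgeR adjusted p 5.06e-06) upon induction in vector cells. PELP1 and RPP40 had the lowest values with JUN alone, at -0.93 and -0.84. KRR1, a small subunit assembly factor, was raised by JUN, by 0.62 (edgeR adjusted p 0.000418, SE 0.11) without and 0.46 (edgeR adjusted p 0.00409, SE 0.11) with induction.

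The cytosolic ribosomal protein genes, 78 of which were tested, were mostly not called upon induction. Upon induction 1 was called higher and 0 lower in vector cells (median -0.05), namely RPL9, and 0 and 0 in JUN cells (median -0.04). Of all genes, 15.6% and 11.2% were called higher, and 14.4% and 10.3% lower. In JUN cells 1 of the 78 genes had an unadjusted p under 0.05 by edgeR, against 4884 of 14775 genes. JUN lowered 27 without and 25 with induction and raised 0, with medians of -0.40 in both, and all 78 had values below 0 in both comparisons. The called genes were 34.6% and 32.1% of the 78, against 18.9% and 17.2% of all genes. JUN Dox against vector EtOH had 0 higher and 41 lower (52.6%), against 20.6% and 17.6% of all genes. Ribosomal protein genes have many processed pseudogenes that can share their reads, so single values are uncertain. Their share of counts was 3.15% ± 0.43 for vector EtOH, 2.98% ± 0.60 for vector Dox, 2.48% ± 0.18 for JUN EtOH and 2.39% ± 0.19 for JUN Dox (SD, n = 3). The vector EtOH 2 and vector Dox 1 libraries described above held the highest shares, and their part in these differences was not tested.

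**Figure D4:**
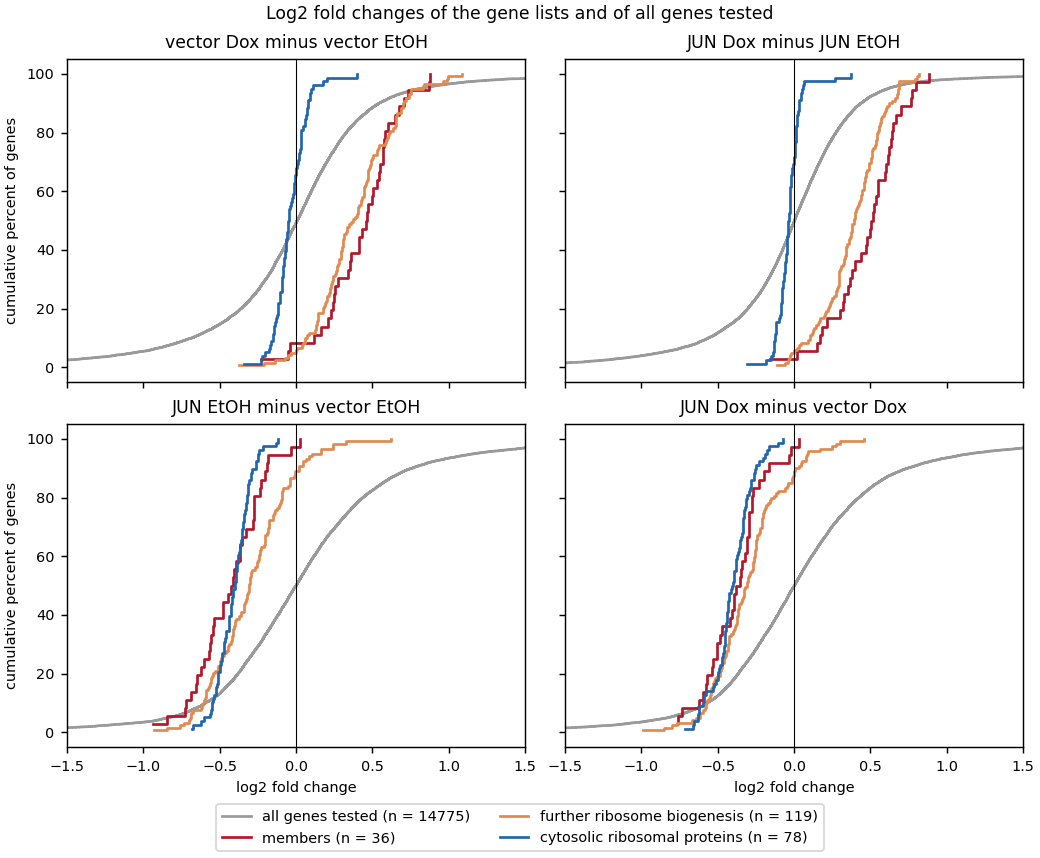
Curves give the cumulative percent of genes (vertical axis) at or below a log2 fold change (horizontal axis, cut to -1.5 to 1.5) for all 14775 genes tested, the 36 genes, 119 further ribosome biogenesis genes and 78 cytosolic ribosomal protein genes in 4 comparisons. In the Dox against EtOH panels the curves of the 36 genes (medians 0.46 and 0.51) and the further genes lie to the right of all genes while ribosomal proteins stay near 0 (medians -0.05 and -0.04), and in the JUN panels all 3 lists lie to the left.

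MYC, whose product binds the E-box, stood at 547, 546 and 521 CPM across vector EtOH, 527, 593 and 489 across vector Dox, 381, 438 and 391 across JUN EtOH, and 379, 417 and 372 across JUN Dox. Vector EtOH and vector Dox overlapped, JUN EtOH and JUN Dox overlapped, and all JUN libraries lay below all vector libraries. MYC changed by -0.00 (edgeR adjusted p 0.984, SE 0.11) upon induction in vector cells and by -0.05 (edgeR adjusted p 0.787, SE 0.11) in JUN cells, and was lower with JUN, at -0.41 (edgeR adjusted p 0.00707, SE 0.11) without and -0.46 (edgeR adjusted p 0.00382, SE 0.11) with induction. The MYC transcript was thus called in both JUN comparisons and in neither induction, and its part in the results was not tested.

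**Figure D5:**
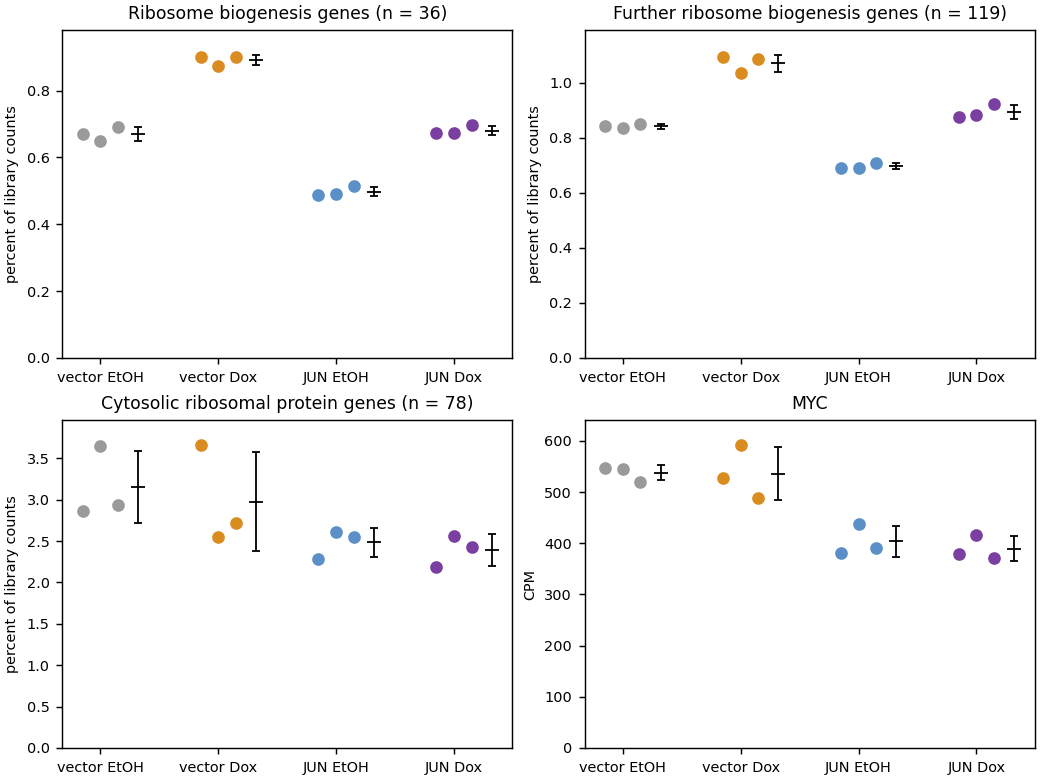
Points give, for each library by group (horizontal axis), the percent of counts taken by the 36 genes, by 119 further ribosome biogenesis genes and by 78 ribosomal protein genes, and the CPM of MYC, with the mean and SD of 3 libraries. Both biogenesis lists are highest in vector Dox and lowest in JUN EtOH, whereas ribosomal proteins and MYC differ mainly between vector and JUN libraries.

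Genes with and without an E-box in the promoter window are set side by side with no test. Upon induction in vector cells the 11 genes with an E-box had a median of 0.50 (range 0.12 to 0.88) and the 20 without a median of 0.44 (-0.23 to 0.87). With JUN alone the medians were -0.43 (-0.94 to 0.03) and -0.34 (-0.72 to -0.03). In JUN cells induction gave 0.60 (0.18 to 0.88) and 0.43 (-0.16 to 0.77). With JUN under induction they were -0.32 and -0.36. BYSL and RRP9, whose E-boxes are printed above, and NIP7 and LYAR, whose windows hold none, had the 4 highest values upon induction in vector cells.

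Levels between genes were compared per kilobase of the canonical transcript's exons. NPM1 had the highest mean level over the 12 libraries, at 688 CPM per kb, followed by NCL (388), NHP2 (202), FBL (159.6) and DDX21 (136), and WDR12 (4.26), UTP20 (6.39) and POLR1A (7.47) the lowest. The RNA polymerase I genes lay between 7.47 and 44.2 CPM per kb. The 36 genes had a median of 103 CPM, against 24.9 CPM for all genes tested, a median exon length of 2559.5 bases against 3177, and a median GC content of 50.7% against 48.4%. Across the 36 genes, which are not independent replicates, the log2 fold change was set against GC content (Pearson r, n = 36). It was -0.16 and 0.161 in the inductions of vector and JUN cells. For JUN without and with induction it was -0.575 and -0.256, and for the interaction 0.576. The points of a comparison share libraries and base composition. Over all genes tested, GC content also correlated with the deviation of single JUN libraries from their group mean. The values were -0.208, -0.0545 and 0.23 across JUN EtOH and -0.358, 0.056 and 0.365 across JUN Dox. In the vector libraries they were -0.0861 to 0.0732. With a GC trend removed from each library, the calls in the order of the comparisons above were 24 and 27 higher, and 30 and 29 lower. Over all genes, the calls in that fit were 2456 (2309 in the main fit) and 1774 (1649) higher, and 2942 (2797) and 2801 (2545) lower.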

How the data were processed

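Poly(A) RNA of MCF10A iYAP5SA cells was sequenced in 12 libraries (4 groups of 3, grouped by sample titles). The deposited table holds raw read counts for each gene, made by the authors and not normalized. According to their methods, single-end reads were trimmed with Cutadapt, aligned to hg19 with Bowtie2 and counted with countOverlaps, and DESeq2 was run for their own comparisons. The submitters' processing notes list Cutadapt 4.2 and Bowtie2 2.3.5.1. Bowtie2 does not split reads across introns, so reads over exon junctions are largely lost, which lowers genes with many short exons alike in all libraries. Annotation and use of strand are not given in the sources used here, so genes that overlap may share reads.

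Every count column matched 1 sample, and total counts of 18594867 to 28993487 per library set the precision. Replicates differed beyond counting noise (chi-square per degree of freedom 8.27 to 63.7), so none were copies. RefSeq gave symbols for 99.4% of 23459 IDs, and positions are GENCODE v44lift37 (GRCh37, 1-based).

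Low counts were removed with edgeR's filterByExpr on the groups (count minimum 10, total minimum 15), and 1 quasi-likelihood model with TMM scaling and robust dispersion was fitted to all 12 libraries with edgeR 4.0.16 in R 4.3.3 (biological coefficient of variation 12.5%). P-values were adjusted by Benjamini-Hochberg over 14775 genes, and calls were made below 0.05. On simulated counts for induction in vector cells (14775 genes), 55% of 100 genes changed by 0.5 log2 units and 100% of 100 changed by 1 were recovered, with 5 unchanged genes called.

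The members and lists were chosen with earlier results of these data known. Per-library values are given for the gene of each role group with the largest change and for the 3 most abundant genes, and for UBTF, singled out after its values were seen. Full statistics are given for up to 12 of the called genes with the largest changes per comparison and for the RNA polymerase I genes. Other genes named after their values were seen are said to be so. JUN Dox against vector EtOH was added after the values were seen. Alternatives were DESeq2 1.42.0, RLE or upper-quartile factors, no filter or a mean of at least 5 CPM, the replicate number as a block, removal of a GC trend, only the libraries of a comparison, each library left out in turn, and, added after seeing the data, both libraries with high ribosomal protein shares left out.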

Additional observations from a re-analysis of the deposited data

How the results depend on the processing

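In each of the 4 pairwise comparisons of the design, the direction of most calls and the sign of the median held under all alternatives, and the interaction had 0 calls in each. Without single libraries the calls were 19 to 24 higher (induction in vector cells), 20 to 28 higher (induction in JUN cells), 19 to 30 lower (JUN without induction) and 15 to 26 lower (JUN with induction), the last falling to 12 with only the libraries of the comparison. Over all genes, the calls without single libraries were 1609 to 2398 and 1035 to 2024 higher, and 1742 to 3342 and 1823 to 2669 lower. The median of JUN without induction ran from -0.508 (without JUN EtOH 3) to -0.375. UBTF made 1 call lower upon induction in vector cells under DESeq2, upper-quartile factors, the 5 CPM minimum and both libraries left out (0 to 1 without single libraries).

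For JUN Dox against vector EtOH, the genes called lower went from 2 to 4 with DESeq2, 5 with upper-quartile factors and 4 with only its libraries, and those called higher from 5 to 8 with a GC trend removed. Without single libraries they were 2 to 8 higher and 1 to 6 lower.

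Medians near 0 changed sign, that of the interaction from 0.05 to -0.01 (without JUN Dox 3) and that of JUN Dox against vector EtOH from 0.03 to -0.012 with upper-quartile factors and -0.00078 with a GC trend removed. Among named genes, signs changed in uncalled values of POLR1A, POLR1B and RRN3. POLR1A turned to 0.025 (induction in vector cells) and -0.20 (JUN with induction) with both libraries left out. Without single libraries POLR1A ran from -0.256 to 0.181 and from -0.200 to 0.237 in these, from -0.012 to 0.424 in the interaction and from -0.171 to 0.078 in JUN Dox against vector EtOH. POLR1B ran from -0.118 to 0.162 in the interaction, where it was -0.042 with both libraries left out. In JUN Dox against vector EtOH, POLR1B ran from -0.035 to 0.083 and was -0.0085 with upper-quartile factors, -0.059 with a GC trend removed and -0.039 with both libraries left out. RRN3 ran from -0.108 to 0.015 for JUN without induction and was -0.0031 in JUN Dox against vector EtOH with a GC trend removed. The cause was not tested. For the genes followed, 1665 values kept direction and call, 49 lost the call, 24 gained it and 21 changed sign. Other calls named above, such as that of NIP7 with JUN without induction (edgeR adjusted p 0.0458), were not followed singly.

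The replicate numbers paired the samples in part at most, and not between all groups. Deviations of same-numbered libraries correlated at -0.258 to 0.466 (median 0.088), over 0.1 in 7 of 18 pairs. Those of 36 other pairs correlated at -0.47 to 0.315 (median -0.048). Same-numbered JUN EtOH and JUN Dox libraries had values of 0.283, 0.0118 and 0.466, and vector EtOH and vector Dox libraries -0.23, -0.258 and 0.106. With the replicate block the calls were 24, 25, 26 and 26 in the order above, and all genes called upon induction in vector cells were 2372 higher and 2216 lower. Precision is limited by 3 libraries a group, overlapping genes and unsplit junction reads.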
